A study of Mus musculus with 12 samples.

Results

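The Dlk1 to Dio3 region of mouse chromosome 12 is an imprinted domain, one whose genes are read from only 1 of the parental chromosomes. The members were all genes placed from Dlk1 to Dio3 inclusive by the GRCm38.p6 gene table that had a probe set annotated to that gene alone. Where a gene had several, its probe set was to be chosen by the largest 12-array average. This gave 48 of the 19938 genes measured, each with 1 probe set, so no level decided the choice of members. They are 3 protein-coding genes, 2 long non-coding RNA genes, 3 small nucleolar RNA (snoRNA) genes and 40 microRNA genes. The table places 103 genes there, so 55 had no probe set of their own. Mirg was one of these, since its probe set is shared with Mir410.

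The samples came from a clone of D3, an established mouse embryonic stem (ES) cell line, with 3 biological replicates in each of 4 groups. The first group was embryoid bodies (EBs) of day 4 given 12 h of all-trans retinoic acid (ATRA) at 5 micromolar, the active form of vitamin A, and the second was day 4 EBs given 12 h of the solvent DMSO. The third was untreated day 4 EBs, aggregates that form when the cells are left in suspension without the cytokine LIF, and the fourth was undifferentiated ES cells of day 0. Whether the 12 h lay within or after the 4 days is not settled by the labels, and all groups derive from 1 clone, so nothing here speaks for other lines.

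From the paternal chromosome the domain expresses Dlk1, Rtl1 and Dio3. From the maternal one it expresses a run of non-coding RNAs: Meg3, then Rian with its snoRNAs, then most of the microRNAs with Mirg among them. These non-coding RNAs are widely regarded as parts of a single long transcription unit under the control of an imprinting control region upstream of Meg3, whose methylation differs between the parental copies. The domain is known in mouse pluripotent cells because silencing of Meg3 marks some reprogrammed lines with poor developmental potential. The arrays do not tell the parental copies apart. A value for a microRNA or snoRNA gene cannot be read as its mature product. The extraction columns and whole-transcript labelling named in the labels recover short RNAs poorly. Which forms of the transcript a probe set reads was not tested.

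The sequences below belong to the 5 microRNAs with the largest differences, Mir377, Mir382, Mir300, Mir380 and Mir323, and to 2 pairs that share a seed. The seed (bases 2 to 8, in capitals) is the stretch through which a microRNA pairs with its target RNAs. Sequences are from RefSeq (GRCm38.p6) and run 5′ to 3′.
mmu-miR-377-5p: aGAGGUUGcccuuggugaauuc
mmu-miR-377-3p: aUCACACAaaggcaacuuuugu
mmu-miR-382-5p: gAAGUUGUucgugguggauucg
mmu-miR-382-3p: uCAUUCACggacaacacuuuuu
mmu-miR-300-5p: uUGAAGAGagguuauccuuugu
mmu-miR-300-3p: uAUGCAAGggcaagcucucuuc
mmu-miR-380-5p: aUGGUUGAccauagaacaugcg
mmu-miR-380-3p: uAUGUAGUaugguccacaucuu
mmu-miR-323-5p: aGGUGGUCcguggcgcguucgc
mmu-miR-323-3p: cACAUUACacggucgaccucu
mmu-miR-379-3p: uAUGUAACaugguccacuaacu
mmu-miR-411-3p: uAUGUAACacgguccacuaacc
mmu-miR-376c-5p: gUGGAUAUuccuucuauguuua
mmu-miR-376b-5p: gUGGAUAUuccuucuaugguua

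RefSeq gave 76 mature sequences for the 40 microRNA members, with 74 different seeds. Only 2 seeds were shared, AUGUAAC by miR-379-3p and miR-411-3p and UGGAUAU by miR-376c-5p and miR-376b-5p. The 5 microRNAs with the largest differences had no seed in common. Hairpin sequences were found for 39 of the 40, and of their 741 pairs 2 shared a run of at least 20 bases. These were Mir376c with Mir376b (31 bases) and Mir376b with Mir487b (20 bases), so the probe sets of these 3 genes may read one another's RNA. The log2 value averaged over the 12 arrays went with the GC percentage of the hairpin (Pearson r = 0.84 and Spearman rho = 0.82 over 39 hairpins, a description across genes that share arrays). The differences between groups had an r of 0.25 (ATRA minus DMSO) and -0.15 (EB minus ES) with GC. Levels of different members are therefore not set against each other here, and only the differences of 1 member between groups are read.

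The imprinting control region itself was not examined here. The 300 bases around the starts of Dlk1 and Meg3, genes that differed in opposite directions between EBs and ES cells, are given for GRCm38.p6, plus strand, at chr12:109452573-109452872 and chr12:109540746-109541045. Capitals mark TGCCGC read on either strand, the hexamer bound by ZFP57, a protein that keeps methylation on imprinted control regions.
Dlk1: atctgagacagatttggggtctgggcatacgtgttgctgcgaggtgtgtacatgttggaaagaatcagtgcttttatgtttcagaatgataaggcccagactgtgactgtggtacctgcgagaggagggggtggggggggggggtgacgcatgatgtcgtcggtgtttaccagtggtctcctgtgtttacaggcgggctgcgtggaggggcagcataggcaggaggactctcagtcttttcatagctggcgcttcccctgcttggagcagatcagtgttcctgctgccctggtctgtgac
Meg3: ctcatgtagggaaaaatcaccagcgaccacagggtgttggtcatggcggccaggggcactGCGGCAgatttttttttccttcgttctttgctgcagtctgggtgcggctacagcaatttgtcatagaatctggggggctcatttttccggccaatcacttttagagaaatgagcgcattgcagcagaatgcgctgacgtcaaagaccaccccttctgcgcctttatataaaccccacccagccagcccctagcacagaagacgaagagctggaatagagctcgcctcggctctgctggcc

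The Meg3 window held the hexamer once, on the minus strand, where it reads GCGGCA on the strand printed. The windows at the starts of Dlk1, Rian, Mirg, Dio3 and Dio3os, and at a further Meg3 start, did not hold these letters. Of all 32851 promoter windows in the RefSeq table, 3813 (11.6%) held it. The match is a description of the letters and not a site.

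The deposited values are on a log2 scale, inferred from their range of 2.30 to 14.7. Array medians ran between 7.76 and 7.87 and replicates correlated between 0.992 and 0.997. As a rough scale of weak signal, the 1027 olfactory receptor genes had a median of 5.52 and a 95th percentile of 7.08, and 19 of the 48 members, 15 microRNAs among them, averaged above that percentile. Differences are log2 differences of group means with standard errors, from limma across all 19938 genes, and a gene was called at a Benjamini-Hochberg adjusted p under 0.05. The spread of values was narrowest on replicate 2 of the ES cells and replicate 2 of the EBs, and without both the EB minus ES counts given below were 13 higher and 2 lower. Summed over the 11 ES cell markers, linear levels were 58570 to 59580 in ATRA-treated bodies, 61155 to 62561 with DMSO, 60881 to 63324 in EBs and 60557 to 61839 in ES cells. Of these 11, 4 fell and 1 rose with ATRA relative to DMSO, where 13.3% of all genes were called. In EBs relative to ES cells 3 rose and 2 fell, where 34.7% of all genes were called. Zfp42 differed by -0.57 ± 0.06 and Fgf4 by -0.49 ± 0.04 with ATRA, and Fgf4, a growth factor gene, rose by 0.73 ± 0.04 in EBs. Sox2 differed by 0.32 ± 0.06 in EBs and by -0.20 ± 0.06 with ATRA. Tbx3 went the other way, by -0.55 ± 0.05 in EBs and 0.35 ± 0.05 with ATRA. Klf4 was lower in both, by -0.52 ± 0.05 in EBs and -0.19 ± 0.05 with ATRA. Fgf4 and Sox2 thus moved in the direction of most called members in both comparisons, and Tbx3 in the opposite one. A link of these genes to the members was not tested.

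With ATRA relative to DMSO, several of the maternally expressed RNAs fell, and so did Dlk1. Of the 48 members, 17 fell, 0 rose and 31 did not pass the test, where 13.3% of all genes were called, 7.05% lower and 6.26% higher. The unadjusted p was under 0.05 for 23 members lower and 0 higher. The members' median difference was -0.25, against 0.01 over all genes, and single differences ran from -1.52 to 0.14. In 27 members all ATRA arrays lay below all DMSO arrays, as in 20.0% of all genes, and in 4 all lay above, as in 19.6%. The fallen members were Dlk1, Meg3, Rian, the snoRNA DQ267102 and 13 microRNAs, all 13 from the stretch that begins with Mir379.

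Day 4 EBs differed from ES cells mostly in the other direction. In EBs 15 members rose and 2 fell, where 34.7% of all genes were called, 17.8% higher and 16.9% lower. The median over members was 0.18, against 0.00 over all genes, and the range was -0.52 to 1.13. The member median was 0.103 without ES replicate 1. EB arrays lay wholly above ES arrays in 18 members, as in 21.2% of all genes, and wholly below in 2, as in 20.1%. Meg3, Rian, DQ267102 and 12 microRNAs rose, while Dlk1 and Dio3 fell.

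DMSO-treated and untreated bodies differed in no member past the test. Against untreated EBs limma called 0 of 48, where 0.747% of all genes were called, 0.537% higher and 0.211% lower. The background of 149 genes was unstable: 0 genes were called without EB replicate 1 or DMSO replicate 1, 2 without DMSO replicate 3, 33 without EB replicate 2, 48 without EB replicate 3, 25 with these groups alone in the fit and 626 with an intensity trend. Of the 149 calls 71.8% were higher, against 87% with median centring and 57.7% with quantile normalization. At an unadjusted p under 0.05 there were 2 members higher and 6 lower. The median was -0.04, against -0.02 over all genes. DMSO arrays lay wholly below EB arrays in 4 members, as in 12.9% of all genes, and wholly above in 0, as in 9.50%. The widest difference was that of Rian, described with its values.

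In ATRA-treated bodies relative to ES cells 2 rose (DQ267102 and Mir494) and 7 fell (Dlk1, Dio3, Mir377, Mir154, Mir329, Mir541 and Mir376b), where 36.6% of all genes were called, 17.5% higher and 19.1% lower. Of these calls over all genes 47.9% were higher, and 58.6% with median centring. The median was -0.05, against -0.01 over all genes. ATRA arrays lay wholly above ES arrays in 3 members, as in 22.7% of all genes, and wholly below in 10, as in 24.8%. The count of risen members depended on the settings, with 1 to 5 under the alternatives tried. The median changed sign without ES replicate 2, when it was 0.03.

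**Figure D1:**
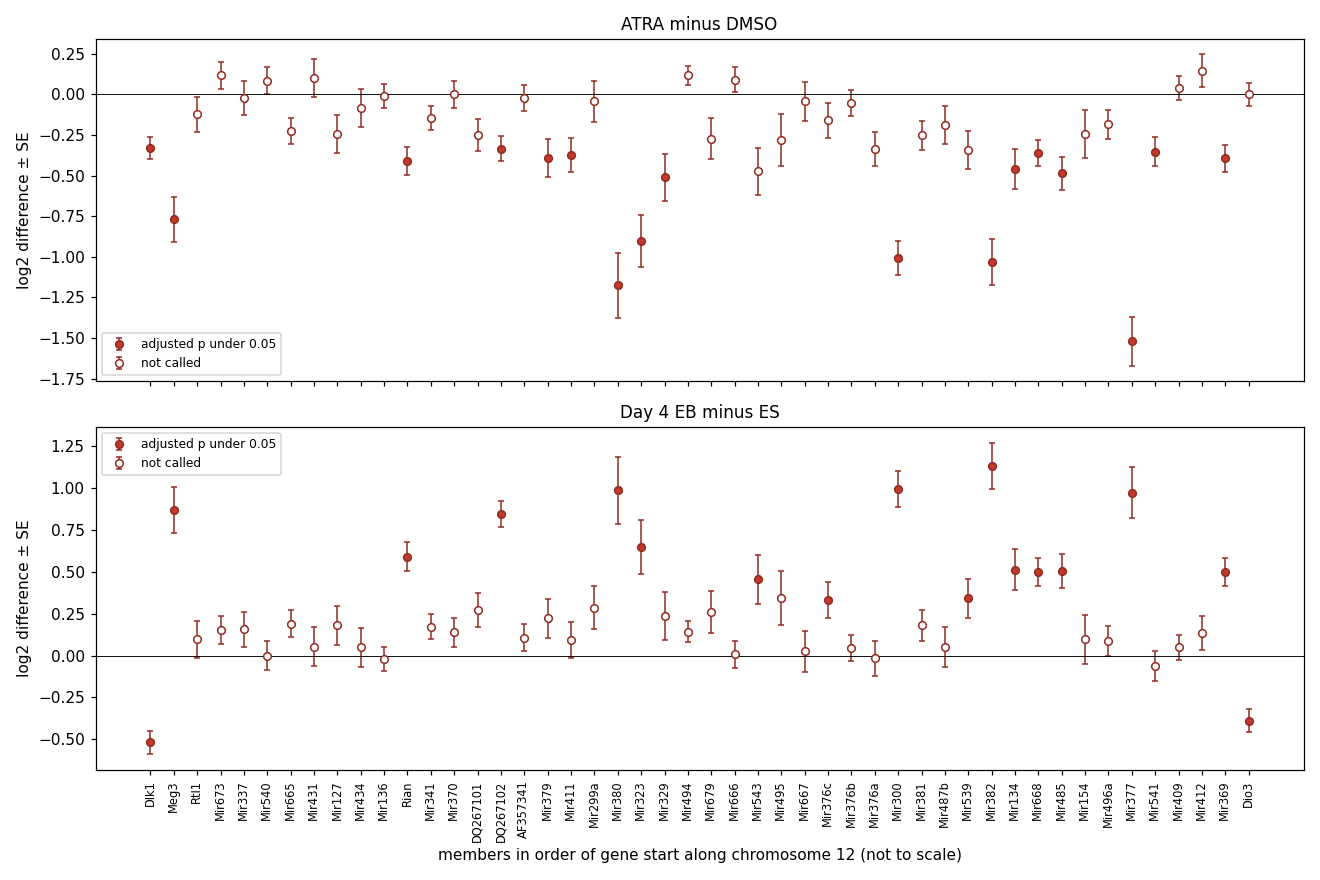
Log2 difference with its standard error for each of the 48 members, in the order of their starts along chromosome 12, for ATRA minus DMSO (top) and day 4 EB minus ES (bottom). Filled points passed the test: 17 lower and 0 higher in the top plot, 15 higher and 2 lower in the bottom one, with none among the 8 microRNAs between Meg3 and Rian.

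Markers of other cell types moved in the same comparisons. All 14 endoderm markers were measured. In EBs relative to ES cells 13 rose, Lrp2 by 3.39 ± 0.08 and Cubn by 2.35 ± 0.07 among them, and with ATRA relative to DMSO 6 fell and 1 rose. Their summed linear level was 26784 to 30168 with ATRA, 30594 to 34604 with DMSO, 25406 to 28638 in EBs and 9604 to 9721 in ES cells. Of 9 neural markers, 2 rose and 1 fell with ATRA, Pax6 by 0.70 ± 0.09, Elavl3 by 0.55 ± 0.04 and Map2 by -0.42 ± 0.09. In EBs relative to ES cells 2 rose, Sox1 by 0.44 ± 0.07 among them. In the same comparison 4 fell, Stmn2 by 0.97 ± 0.08 and Map2 by 0.71 ± 0.09 among them. The sums over the 9 neural markers were 3038 to 3045 with ATRA, 2716 to 2866 with DMSO, 2800 to 2911 in EBs and 3050 to 3211 in ES cells. Of 8 primitive streak and mesoderm markers, 0 rose and 1 fell with ATRA, and 3 rose and 1 fell in EBs. Their sums were 3038 to 3111 with ATRA, 3169 to 3338 with DMSO, 2671 to 2898 in EBs and 2035 to 2094 in ES cells. Over all genes 13.3% were called in ATRA minus DMSO and 34.7% in EB minus ES. The part of these markers in the members' differences was not tested.

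The protein-coding members, read from the paternal chromosome, did not move as one. Dlk1 encodes a membrane protein of the Notch ligand family that holds back adipocyte formation. Dlk1 read 11.17, 11.11 and 11.20 in ATRA-treated bodies and 11.54, 11.39 and 11.54 in DMSO-treated bodies. It read 11.52, 11.67 and 11.38 in untreated day 4 bodies and 12.01, 12.04 and 12.08 in ES cells. ES cells were highest on every array, ATRA-treated bodies were lowest, and DMSO-treated and untreated bodies overlapped. Dlk1 fell by 1.43-fold in EBs relative to ES cells, a log2 difference of -0.52 ± 0.07 (adjusted p = 7.86e-05). It fell by a further 1.26-fold with ATRA relative to DMSO, at -0.33 ± 0.07 (adjusted p = 0.00677), and the difference between ATRA-treated bodies and ES cells was -0.88 ± 0.07 (adjusted p = 7.18e-07). DMSO minus EB was -0.03 ± 0.07, with an adjusted p of 0.848.

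Dio3 encodes the type 3 deiodinase, which inactivates thyroid hormone. Dio3 read 6.78, 6.89 and 6.98 in ATRA-treated bodies and 6.88, 6.93 and 6.84 in DMSO-treated bodies. It read 7.06, 7.04 and 6.84 in untreated day 4 bodies and 7.39, 7.29 and 7.43 in ES cells. ES cells stood above all other arrays, and the 3 EB groups overlapped. Its 12-array mean of 7.03 lay just below the olfactory 95th percentile of 7.08. Dio3 fell in EBs relative to ES cells by 1.31-fold, at -0.39 ± 0.07 (adjusted p = 0.000707), and ATRA minus ES was -0.49 ± 0.07 (adjusted p = 0.000115). ATRA minus DMSO was 0.00 ± 0.07, which did not pass the test (adjusted p = 1).

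Rtl1 encodes a retrotransposon-derived protein needed for the capillaries of the mouse placenta. Rtl1 read 7.71, 7.52 and 7.64 in ATRA-treated bodies and 7.63, 7.78 and 7.83 in DMSO-treated bodies. It read 7.57, 7.83 and 7.69 in untreated day 4 bodies and 7.33, 7.79 and 7.68 in ES cells. All 4 groups overlapped. No comparison of Rtl1 passed the test: ATRA minus DMSO was -0.12 ± 0.11 (adjusted p = 0.526), DMSO minus EB was 0.05 ± 0.11 (adjusted p = 0.865), and EB minus ES was 0.10 ± 0.11 (adjusted p = 0.565). Of the paternally expressed genes, Dlk1 and Dio3 were thus lower in EBs than in ES cells, and Dlk1 was the one that fell with ATRA.

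The fall of Dlk1 and Dio3 in EBs went with a fall of fibroblast markers. Of 17 measured markers of fibroblasts or feeder cells, 14 fell and 0 rose in EBs relative to ES cells, with a median of -1.07. S100a4 differed by -2.30 ± 0.07, Loxl1 by -1.32 ± 0.04, Thy1 by -1.82 ± 0.06 and Dcn by -1.78 ± 0.06. Their summed linear level was 5515 to 5643 in ATRA-treated bodies, 6128 to 6223 with DMSO, 6064 to 6491 in EBs and 13979 to 14632 in ES cells. Dlk1 is expressed in fibroblasts of the mouse embryo, and the part of such cells in its fall was not tested. In bulk RNA, fewer cells of a type and less RNA per cell cannot be told apart. With ATRA relative to DMSO, 2 of the 17 markers rose and 4 fell, with a median of -0.07. Over all genes 34.7% were called in EB minus ES and 13.3% in ATRA minus DMSO.

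Meg3, the long non-coding RNA also known as Gtl2, was 1 of 12 members called both higher in EBs than in ES cells and lower with ATRA than with DMSO. Meg3 read 9.71, 9.88 and 9.88 in ATRA-treated bodies and 10.54, 10.58 and 10.64 in DMSO-treated bodies. It read 10.17, 10.61 and 10.68 in untreated day 4 bodies and 9.34, 9.86 and 9.67 in ES cells. DMSO-treated bodies stood above all ATRA-treated bodies, and all EBs stood above all ES cells. Meg3 averaged 9.82 ± 0.10 with ATRA and 10.59 ± 0.05 with DMSO (SD, n = 3 each), and 10.49 ± 0.27 in EBs and 9.62 ± 0.26 in ES cells. It rose by 1.82-fold in EBs relative to ES cells, at 0.87 ± 0.14 (adjusted p = 0.000296). It fell by 1.7-fold with ATRA relative to DMSO, at -0.77 ± 0.14 (adjusted p = 0.00234). ATRA-treated bodies and ES cells overlapped, with a difference of 0.20 ± 0.14 that did not pass the test (adjusted p = 0.305). Replicate 1 of the EBs and replicate 1 of the ES cells were the lowest of their groups.

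Rian is the next long non-coding RNA along the unit and hosts a cluster of C/D box snoRNAs. Rian read 6.35, 6.60 and 6.35 in ATRA-treated bodies and 6.75, 6.86 and 6.92 in DMSO-treated bodies. It read 7.07, 7.37 and 7.35 in untreated day 4 bodies and 6.62, 6.71 and 6.69 in ES cells. On this probe set the 3 EB groups did not overlap, with untreated bodies highest, DMSO-treated bodies between and ATRA-treated bodies lowest. On the probe set annotated to AF357355 and Rian, given in the closing section, DMSO-treated and untreated bodies overlapped. Rian rose by 1.51-fold in EBs relative to ES cells, at 0.59 ± 0.09 (adjusted p = 0.000188), and fell by 1.33-fold with ATRA relative to DMSO, at -0.41 ± 0.09 (adjusted p = 0.00771). DMSO minus EB was -0.42 ± 0.09, with an adjusted p of 0.0555. This last difference was called under quantile normalization (0.0423), median centring (0.042), an intensity trend (0.0212) and a replicate block (0.0373). It was not called with these groups alone in the fit (0.142), with array weights (0.0532) or with any of the EB or DMSO arrays left out (0.0602 to 0.233). The difference of ATRA-treated bodies and ES cells was -0.24 ± 0.09 (adjusted p = 0.0524). On average over the 12 arrays Rian read 6.80, below the olfactory 95th percentile of 7.08.

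The snoRNA members lie in the same unit. Whether their probe sets read the snoRNAs or the longer transcript was not tested. DQ267102 read 11.97, 11.96 and 11.88 in ATRA-treated bodies and 12.20, 12.16 and 12.44 in DMSO-treated bodies. It read 12.15, 12.30 and 12.16 in untreated day 4 bodies and 11.25, 11.44 and 11.38 in ES cells. ES cells were lowest on every array, and ATRA-treated bodies lay between ES cells and DMSO-treated bodies without overlap. DQ267102 rose by 1.79-fold in EBs relative to ES cells, at 0.84 ± 0.08 (adjusted p = 2.91e-06), and fell by 1.26-fold with ATRA relative to DMSO, at -0.33 ± 0.08 (adjusted p = 0.0118). The second call was lost without ATRA replicate 3 (adjusted p = 0.0556). It was still higher with ATRA than in ES cells, by 0.58 ± 0.08 (adjusted p = 7.16e-05).

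The other snoRNA members did not pass the test in any comparison. DQ267101 had 5.43, 5.37 and 4.99 with ATRA and 5.52, 5.38 and 5.63 with DMSO, a difference of -0.25 ± 0.10 (adjusted p = 0.135), and its EB minus ES difference was 0.27 ± 0.10 (adjusted p = 0.0517). AF357341, matched to the region by its symbol alone, differed by -0.02 ± 0.08 (adjusted p = 0.898) between ATRA and DMSO and by 0.11 ± 0.08 (adjusted p = 0.353) between EBs and ES cells.

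**Figure D2:**
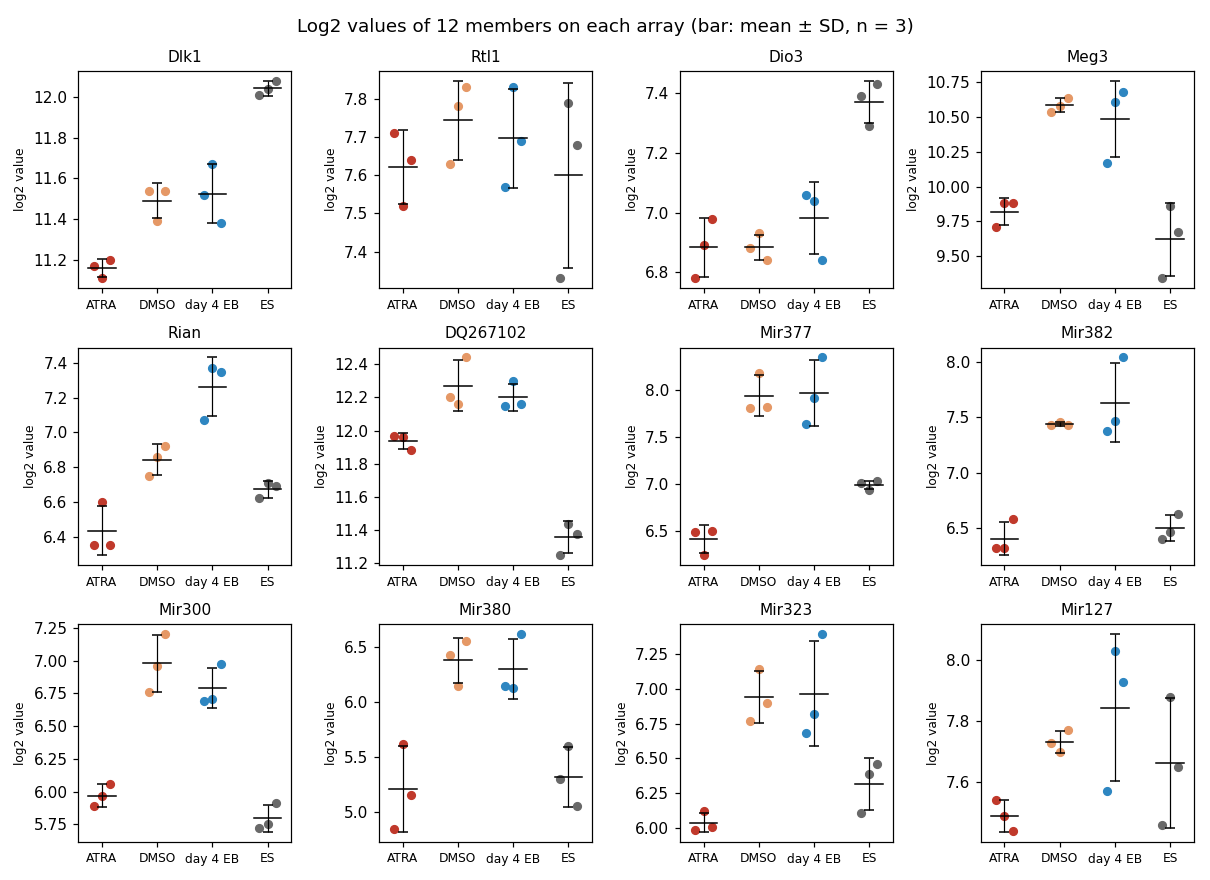
Log2 values of 12 members on every array by group, with the mean and SD of the 3 replicates (vertical scales differ between plots). Meg3, DQ267102 and the microRNAs Mir377 to Mir323 stand lower with ATRA than with DMSO and higher in EBs than in ES cells, Dlk1 is highest in ES cells, and the groups of Rtl1 overlap.

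The microRNA members fall into 3 stretches: 8 between Meg3 and Rian, 2 within Rian (Mir341 and Mir370) and 30 from Mir379 on, the run known as the miR-379/miR-410 cluster. In the last stretch 13 of 30 fell with ATRA relative to DMSO, with a median of -0.34, and 12 of 30 rose in EBs relative to ES cells, with a median of 0.25. Of the 8 between Meg3 and Rian limma called 0 in each of the 4 comparisons, where 13.3%, 0.747%, 34.7% and 36.6% of all genes were called for ATRA minus DMSO, DMSO minus EB, EB minus ES and ATRA minus ES, so a count of 0 among so few genes says little. They had medians of -0.02 for ATRA minus DMSO and 0.10 for EB minus ES. At an unadjusted p under 0.05 there were 0 higher and 1 lower among these 8 in ATRA minus DMSO, and 1 higher and 0 lower in EB minus ES. The 2 within Rian were called 0 times as well, with 0 and 1 past an unadjusted p under 0.05 in those comparisons, and Mir341 was called lower with ATRA when the ATRA and DMSO arrays alone were in the fit. The hairpins between Meg3 and Rian had a median GC content of 55.2%, and those from Mir379 on 42.3%. Whether the stretches differ from each other was not tested.

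Mir377 showed the widest ATRA difference of all members. Mir377 read 6.49, 6.25 and 6.51 in ATRA-treated bodies and 7.81, 8.18 and 7.82 in DMSO-treated bodies. It read 7.64, 7.91 and 8.34 in untreated day 4 bodies and 7.01, 6.94 and 7.03 in ES cells. ATRA-treated bodies were lowest on every array, below ES cells as well, and both other EB groups lay above ES cells. Mir377 fell by 2.87-fold with ATRA relative to DMSO, at -1.52 ± 0.15 (adjusted p = 2.73e-05), and rose by 1.96-fold in EBs relative to ES cells, at 0.97 ± 0.15 (adjusted p = 0.000267). It was also lower with ATRA than in ES cells, at -0.58 ± 0.15 (adjusted p = 0.00953).

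Mir382 had the widest difference between EBs and ES cells. Mir382 read 6.32, 6.32 and 6.58 in ATRA-treated bodies and 7.43, 7.46 and 7.43 in DMSO-treated bodies. It read 7.38, 7.47 and 8.04 in untreated day 4 bodies and 6.40, 6.47 and 6.63 in ES cells. The DMSO-treated and untreated bodies stood above all ATRA-treated bodies and ES cells. Mir382 rose by 2.19-fold in EBs relative to ES cells, at 1.13 ± 0.14 (adjusted p = 3.88e-05), and fell by 2.04-fold with ATRA relative to DMSO, at -1.03 ± 0.14 (adjusted p = 0.000291).

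Mir300 showed the same split of the groups into a higher and a lower pair. Mir300 read 5.89, 5.97 and 6.06 in ATRA-treated bodies and 6.76, 6.96 and 7.20 in DMSO-treated bodies. It read 6.69, 6.71 and 6.97 in untreated day 4 bodies and 5.72, 5.75 and 5.91 in ES cells. Every DMSO-treated and untreated body stood above every ATRA-treated body and ES sample. It fell by 2.01-fold with ATRA relative to DMSO, at -1.01 ± 0.11 (adjusted p = 4.4e-05), and rose by 1.99-fold in EBs relative to ES cells, at 0.99 ± 0.11 (adjusted p = 1.1e-05). Its hairpin shares a run of 16 bases with that of Mir381, which did not pass the test in ATRA minus DMSO (-0.25 ± 0.09) or in EB minus ES (0.18 ± 0.09).

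Mir380 varied more between replicates. Mir380 read 4.84, 5.62 and 5.15 in ATRA-treated bodies and 6.43, 6.15 and 6.56 in DMSO-treated bodies. It read 6.15, 6.13 and 6.62 in untreated day 4 bodies and 5.30, 5.60 and 5.05 in ES cells. ATRA-treated bodies overlapped ES cells and lay below the other EB groups. It fell by 2.26-fold with ATRA relative to DMSO, at -1.18 ± 0.20 (adjusted p = 0.0017), and rose by 1.98-fold in EBs relative to ES cells, at 0.99 ± 0.20 (adjusted p = 0.00197).

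Mir323 completed the group of widest changes. Mir323 read 5.99, 6.12 and 6.01 in ATRA-treated bodies and 6.77, 7.14 and 6.90 in DMSO-treated bodies. It read 6.68, 6.82 and 7.39 in untreated day 4 bodies and 6.11, 6.39 and 6.46 in ES cells. ATRA-treated bodies lay below DMSO-treated bodies, and EBs lay above ES cells. The differences were -0.90 ± 0.16 (adjusted p = 0.00228) for ATRA minus DMSO and 0.65 ± 0.16 (adjusted p = 0.007) for EB minus ES. The mature sequences of these 5 microRNAs, printed above, hold no seed in common. Of the 5, only Mir377 averaged above the olfactory 95th percentile of 7.08, at 7.33. The 12-array means of Mir382 (6.99), Mir323 (6.57), Mir300 (6.38) and Mir380 (5.80) lay below it, in the range of weak signal.

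Mir134, studied for its control of dendritic spine growth, is 1 of 4 microRNA members named for their high 12-array means, a choice that follows the GC content of the hairpin and is no ranking of RNA levels. Mir134 read 8.41, 8.38 and 8.30 in ATRA-treated bodies and 8.68, 8.85 and 8.94 in DMSO-treated bodies. It read 8.59, 8.90 and 9.03 in untreated day 4 bodies and 8.12, 8.58 and 8.28 in ES cells. ATRA-treated bodies lay below DMSO-treated bodies, and EBs lay just above ES cells. The differences were -0.46 ± 0.12 (adjusted p = 0.0283) for ATRA minus DMSO and 0.51 ± 0.12 (adjusted p = 0.0061) for EB minus ES. The first call was lost without any of ATRA replicates 1, 2 and 3 or DMSO replicates 2 and 3. The other members named for this did not pass the test: ATRA minus DMSO was -0.14 ± 0.07 for Mir341, -0.04 ± 0.12 for Mir667 and 0.12 ± 0.08 for Mir673, and EB minus ES was 0.17 ± 0.07, 0.03 ± 0.12 and 0.15 ± 0.08 for the same genes.

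The other called microRNAs had smaller differences and are named here after their values were seen, apart from Mir329, Mir541, Mir154, Mir376b and Mir494. Mir668, Mir485 and Mir369 both fell with ATRA, by 0.36 ± 0.08, 0.49 ± 0.10 and 0.39 ± 0.08, and rose in EBs, by 0.50 ± 0.08, 0.50 ± 0.10 and 0.50 ± 0.08. Mir329, Mir379, Mir411 and Mir541 fell with ATRA relative to DMSO by 0.51 ± 0.14, 0.39 ± 0.12, 0.37 ± 0.11 and 0.35 ± 0.09. Each of these 4 calls was lost when certain single arrays were left out. That of Mir329 was lost without any of DMSO replicates 1, 2 and 3 or ATRA replicates 1 and 2. The Mir379 call was lost without DMSO replicate 2 or 3 or any ATRA replicate, the Mir411 call without any DMSO replicate or ATRA replicate 1 or 2, and the Mir541 call without DMSO replicate 2 or ATRA replicate 1 or 3. Mir379 and Mir411, the pair that shares a 3p seed, read between 3.69 and 4.41 and between 4.15 and 4.76 over the 12 arrays, below the median of the olfactory receptor genes.

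In EBs relative to ES cells, Mir543 rose by 0.45 ± 0.14, Mir539 by 0.34 ± 0.12 and Mir376c by 0.33 ± 0.11. Mir376c averaged 3.06 over the 12 arrays, below the 5th percentile of the olfactory receptor genes (3.71). Mir539 averaged 4.66, below their median (5.52). The Mir543 call was lost without ES replicate 1 or 2 or EB replicate 2 or 3, the Mir539 call without ES replicate 1 or 3 or EB replicate 2 or 3, and the Mir376c call without ES replicate 2 or 3 or EB replicate 3. Mir543 was just outside the threshold in ATRA minus DMSO (-0.47 ± 0.14, adjusted p = 0.0511), as was Mir376a (-0.34 ± 0.10, adjusted p = 0.0527). In ATRA-treated bodies relative to ES cells, Mir154 fell by 0.46 ± 0.15, Mir329 by 0.42 ± 0.14, Mir541 by 0.42 ± 0.09 and Mir376b by 0.23 ± 0.08, while Mir494 rose by 0.17 ± 0.06. Those of Mir154 (ES replicate 2, ATRA replicate 2 or 3), Mir329 (ES replicate 2 or 3, ATRA replicate 1 or 2), Mir376b (ES replicate 1 or 3, ATRA replicate 3) and Mir494 (ES replicate 1 or 2, ATRA replicate 1 or 3) were each lost when 1 of the arrays named was left out. The remaining 21 microRNA members were called in none of the 4 comparisons, with differences of -0.34 to 0.14 for ATRA minus DMSO and -0.02 to 0.34 for EB minus ES.

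Mir127 lies in the stretch between Meg3 and Rian, is transcribed opposite to Rtl1 and pairs fully with its RNA. Mir127 read 7.54, 7.49 and 7.44 in ATRA-treated bodies and 7.73, 7.70 and 7.77 in DMSO-treated bodies. It read 7.57, 8.03 and 7.93 in untreated day 4 bodies and 7.46, 7.88 and 7.65 in ES cells. The ES and EB groups overlapped, and the ATRA group lay below the DMSO group. Its ATRA minus DMSO difference was -0.24 ± 0.12 with an adjusted p of 0.212, and EB minus ES was 0.18 ± 0.12 (adjusted p = 0.271), so neither passed the test.

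**Figure D3:**
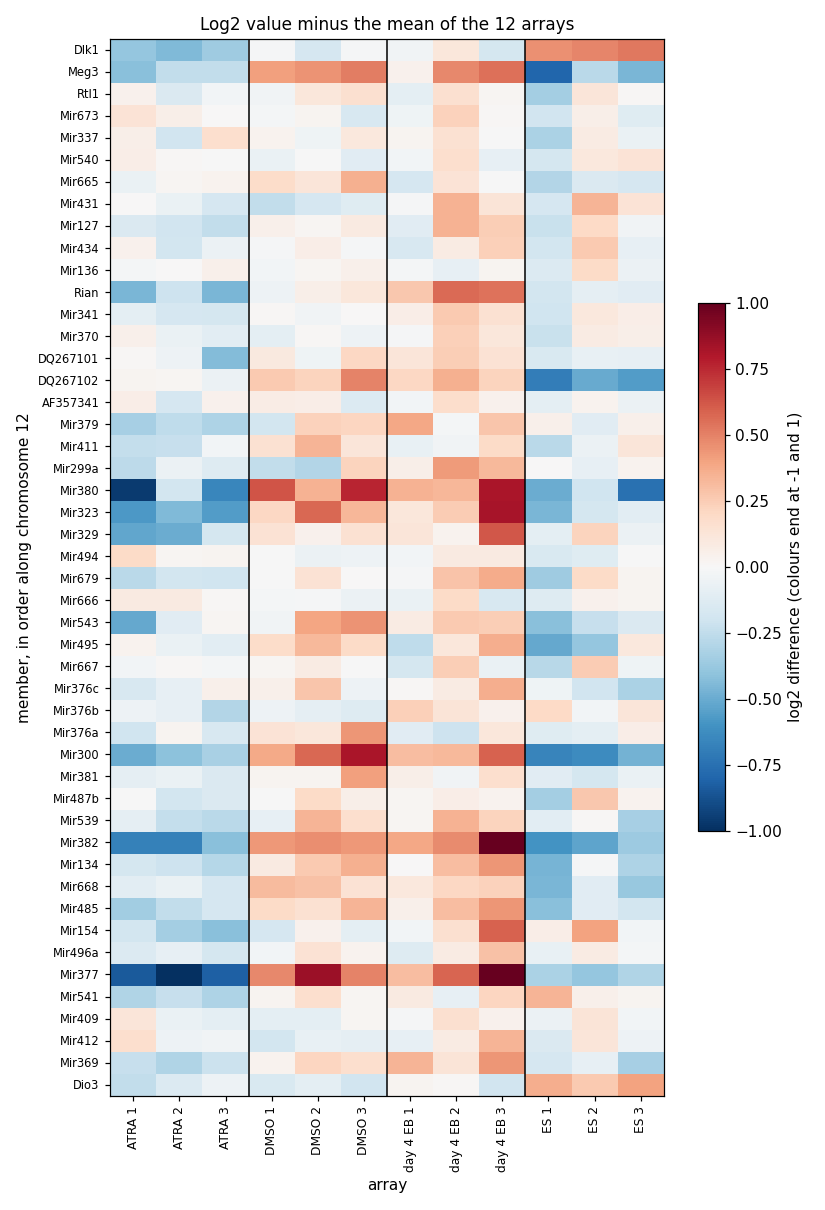
Log2 value of each of the 48 members on each of the 12 arrays minus that member's mean over the arrays, in the order of the genes along chromosome 12 (red above the mean, blue below, colours ending at -1 and 1). Mir377, Mir382, Mir300, Mir380 and Mir323 are blue in the ATRA and ES arrays and red in the DMSO and EB arrays, and Dlk1 is reddest in the ES arrays.

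EB minus ES and ATRA minus DMSO share no array, so their members can be set side by side. Of the 15 members that rose in EBs, 12 fell with ATRA, which is 80% of the first set and 70.6% of the 17 that fell. Over all genes 3558 rose in EBs and 1406 fell with ATRA, and 778 did both, 21.9% of the first set and 55.3% of the second. The members' differences had opposite signs in 36 of 48, against 57.7% of all genes, with r = -0.78 and rho = -0.69 over the 48 members against r = -0.26 and rho = -0.24 over all genes (descriptions, since genes share arrays and the members share transcripts). The 12 were Meg3, Rian, DQ267102, Mir380, Mir323, Mir300, Mir382, Mir134, Mir668, Mir485, Mir377 and Mir369. In ATRA-treated bodies relative to ES cells, a comparison that shares arrays with both, 10 of the 12 did not pass the test, DQ267102 was higher and Mir377 lower. A difference that misses the test does not show that the levels were equal.

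**Figure D4:**
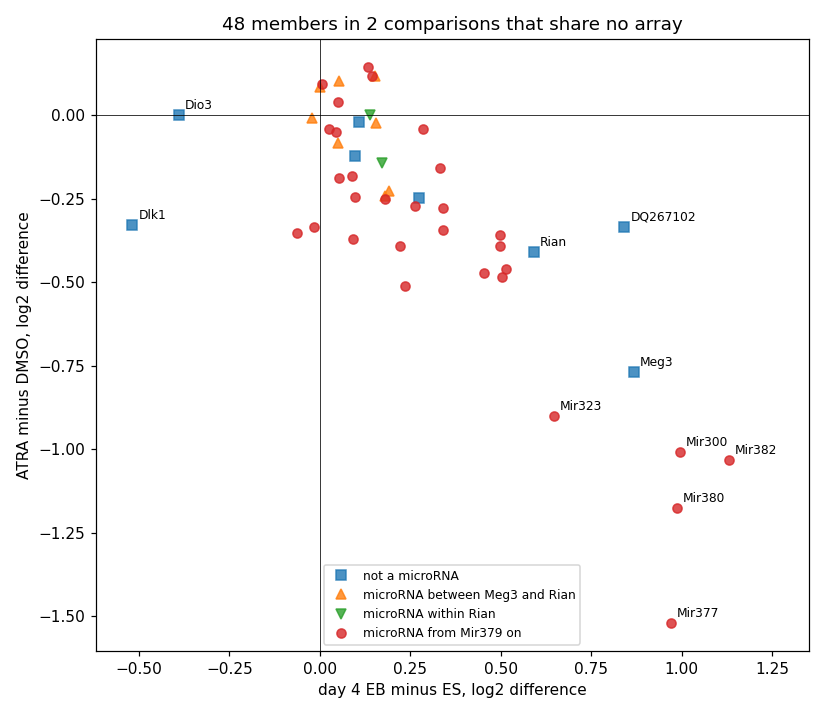
Log2 difference of each of the 48 members for day 4 EB minus ES (horizontal) and ATRA minus DMSO (vertical), marked by stretch of the domain. Mir377, Mir382, Mir300 and Mir380 lie at the lower right, higher in EBs by 0.97 to 1.13 and lower with ATRA by 1.01 to 1.52, and Dlk1 lies at the lower left.

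The neighbouring genes give the values just outside the domain. Begain, the nearest measured gene before Dlk1, differed by 0.00 ± 0.07 between ATRA and DMSO and by 0.04 ± 0.07 between EBs and ES cells. Ppp2r5c, the nearest after Dio3, differed by -0.14 ± 0.06 and 0.10 ± 0.06, and none of these passed the test. Of 10 measured genes within 1 Mb before Dlk1, limma called 0 in ATRA minus DMSO (2 higher and 1 lower at an unadjusted p under 0.05), and 1 fell in EBs relative to ES cells. Of 12 within 1 Mb after Dio3, 2 rose and 1 fell with ATRA, and 3 rose and 3 fell in EBs. Over all genes 13.3% were called in ATRA minus DMSO and 34.7% in EB minus ES, so counts among so few neighbours say little. Amn, which encodes the partner of cubilin in endoderm and kidney, was the widest of these neighbours, rising by 1.18 ± 0.10 in EBs (adjusted p = 1.08e-06). The medians were 0.06 before and 0.07 after the domain in ATRA minus DMSO, and -0.03 and 0.00 in EB minus ES.

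MicroRNA genes elsewhere in the genome and other imprinted genes were described in the same way. Of 257 microRNA genes elsewhere, 13 fell and 2 rose with ATRA, with a median of 0.03, and 15 rose and 12 fell in EBs relative to ES cells, with a median of 0.01. Of these 257, 2 both rose in EBs and fell with ATRA, where 778 of all 19938 genes did both. Of 20 other imprinted genes, 5 rose and 2 fell with ATRA, with a median of 0.02, and 9 rose and 6 fell in EBs, with a median of 0.06. Over all genes 13.3% were called in ATRA minus DMSO and 34.7% in EB minus ES. Peg3, a paternally expressed zinc finger gene, rose by 1.06 ± 0.05 in EBs and Igf2, a growth factor gene, by 0.92 ± 0.09, while Phlda2, a maternally expressed brake on placental growth, differed by -0.83 ± 0.06. With ATRA, Mest, a paternally expressed gene of embryonic mesoderm, fell by 0.47 ± 0.06, and the neuronal genes Nnat and Ndn rose by 0.31 ± 0.05 and 0.36 ± 0.06. None of the 20 both rose in EBs and fell with ATRA, where 778 of all 19938 genes did both. With only 2 of the 20 lower with ATRA, a count of 0 among so few genes says little. These lists were not tested against the domain.

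**Figure D5:**
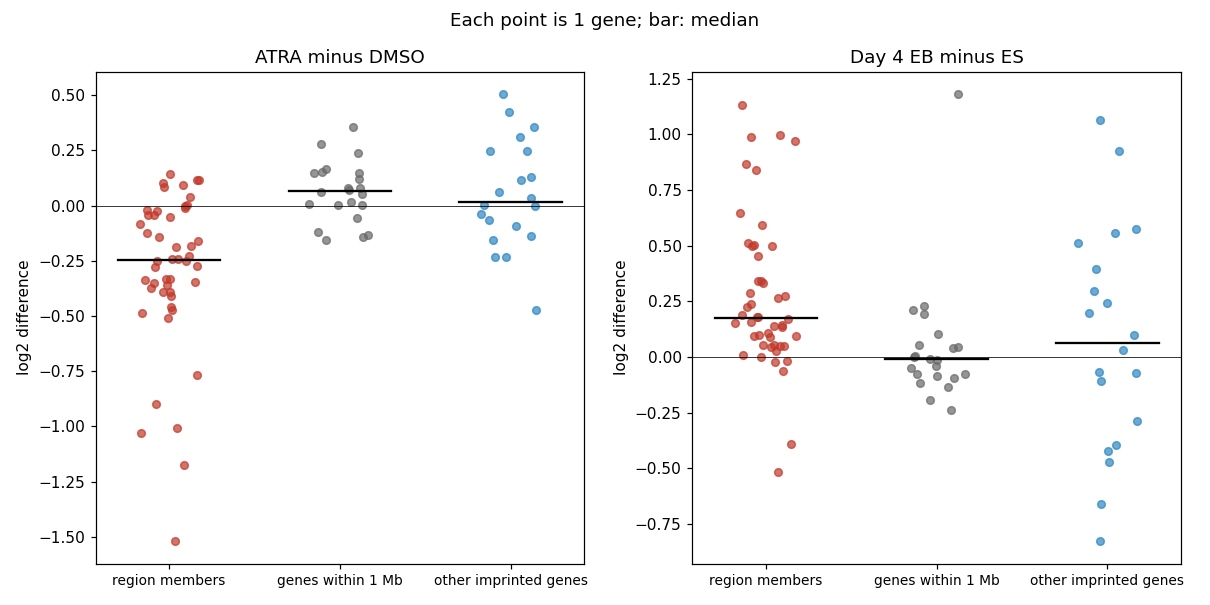
Log2 differences of the 48 region members, the 22 genes within 1 Mb on either side and 20 other imprinted genes, for ATRA minus DMSO (left) and day 4 EB minus ES (right), with 1 point for each gene and a bar at the median. The member median is -0.25 on the left, against 0.02 for other imprinted genes, and 0.18 against 0.06 on the right, and the high point among the neighbours on the right is Amn.

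Of 20 genes that keep imprints or act on this domain, 1 rose and 3 fell with ATRA relative to DMSO, where 13.3% of all genes were called. In EBs relative to ES cells 7 rose and 1 fell, where 34.7% of all genes were called. Dnmt3l, the catalytically inactive partner of the de novo DNA methyltransferases, read 10.67, 10.69 and 10.60 with ATRA and 11.75, 11.72 and 11.84 with DMSO. It read 11.46, 11.40 and 11.47 in untreated EBs and 10.87, 10.81 and 10.84 in ES cells. No groups overlapped, and it was lowest with ATRA and highest with DMSO. Dnmt3l fell with ATRA (-1.12 ± 0.05, adjusted p = 2.09e-08), as did the methyltransferase gene Dnmt3b (-0.54 ± 0.05, adjusted p = 2.84e-05) and Atrx, a chromatin remodeller (-0.20 ± 0.05, adjusted p = 0.0211), while Dnmt3a rose (0.25 ± 0.05, adjusted p = 0.00626). In EBs relative to ES cells Dnmt3l rose by 0.60 ± 0.05 (adjusted p = 7.78e-07). Atrx rose by 0.31 ± 0.05 (adjusted p = 0.000435) and Suz12 by 0.27 ± 0.06 (adjusted p = 0.00401). Aff3, which binds the control region of this domain in mouse ES cells, fell (-0.31 ± 0.07, adjusted p = 0.00309). With DMSO relative to untreated EBs, Dnmt3l rose (0.33 ± 0.05, adjusted p = 0.013) and Atrx fell (-0.29 ± 0.05, adjusted p = 0.0314). Both calls were lost without EB replicate 1 or DMSO replicate 1. That of Atrx was lost without DMSO replicate 3 too, where the only 2 genes called were higher. In ATRA-treated bodies relative to ES cells 3 of the 20 rose and 9 fell, where 36.6% of all genes were called. Dnmt3a, with the smallest adjusted p of the list there, was higher, at 0.46 ± 0.05 (adjusted p = 2.02e-05). Zfp57 was lower, at -0.29 ± 0.05 (adjusted p = 0.000571). It was not called in ATRA minus DMSO (-0.13 ± 0.05, adjusted p = 0.139) or in EB minus ES (-0.09 ± 0.05, adjusted p = 0.205). DNA methylation was not measured, and a link of these genes to the members was not tested.

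Of 9 genes that process microRNAs, 1 rose and 0 fell with ATRA relative to DMSO, namely Ago4, one of the Argonaute proteins that hold mature microRNAs (0.22 ± 0.04, adjusted p = 0.00497), with 4 lower at an unadjusted p under 0.05. In EBs 2 rose, Dicer1 (0.21 ± 0.04, adjusted p = 0.00191) and Drosha (0.23 ± 0.06, adjusted p = 0.00677), which cut microRNA precursors. Over all genes 13.3% were called in ATRA minus DMSO and 34.7% in EB minus ES.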

How the data were processed

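Total RNA of 12 D3 samples was extracted with RNeasy kits and labelled with the WT Expression kit for Affymetrix arrays, per the labels' protocols. The authors deposited 1 table of log2 values (the scale is inferred) for 35556 probe sets. For background correction, normalization and summarization, the method is not given in the sources used here. Nearly equal array distributions hide any change in total RNA per cell. The number of arrays limits the precision.

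Of the probe sets, 21789 had 1 symbol in the platform annotation, 1621 had several and 12146 were unlisted. Gene identifiers of 21698 matched the RefSeq gene table of GRCm38.p6, changing 0 symbols, and gene order came from that table. The highest-mean probe set stood for each of 19938 genes, with no filter on low values.

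Group means were fitted over all 12 arrays with limma 3.58.1 in R 4.3.3 (lmFit, contrasts, eBayes), and p-values were adjusted by Benjamini-Hochberg over all genes. The fit was tested on simulated data. Replicates are labelled biological, with nothing said on separate cultures, so p-values measure the spread between these samples.

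The members, the 8 gene lists and the tests were chosen with earlier results of these data known. Text names every member that is not a microRNA, up to 6 called microRNAs with the largest differences per comparison, the 4 with the highest means, up to 4 called genes of each list by adjusted p, and neighbours called at a difference of at least 0.5. Exceptions, such as Mir127, are named after their values were seen. Alternatives covered normalization, low signal, probe set choice, variance model, array weights, threshold, replicate block and each array left out.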

Additional observations from a re-analysis of the deposited data

Results flagged for a closer look

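2 probe sets annotated to several genes of the domain were outside the comparisons and read higher on every EB array than on every ES array, with no test run on them. The probe set of Mirg and Mir410 read 7.60, 7.61 and 7.74 with ATRA and 8.93, 8.97 and 8.90 with DMSO. It read 8.73, 8.56 and 8.93 in untreated EBs and 7.48, 7.18 and 7.15 in ES cells. The differences of means were -1.29 for ATRA minus DMSO and 1.47 for EB minus ES. The probe set of AF357355 and Rian read 7.93, 7.76 and 7.57 with ATRA and 8.47, 8.57 and 8.80 with DMSO. It read 8.83, 8.86 and 8.73 in untreated EBs and 8.03, 8.22 and 8.16 in ES cells. Its differences were -0.86 and 0.67. Its DMSO minus EB difference was -0.19, with overlapping arrays. Which gene of each pair carries the signal cannot be told apart.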

How the results depend on the processing

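0 members rose with ATRA relative to DMSO under every alternative run, and 0 rose with DMSO relative to EBs. Of the 17 members that fell with ATRA, 11 kept the call whichever single array of the groups compared was left out. So did 14 of 17 in EB minus ES and 5 of 9 in ATRA minus ES. Arrays of the other groups enter the shared spread. Leaving out 1 of those kept 16 or 17 calls in ATRA minus DMSO and in EB minus ES, and 7 to 9 in ATRA minus ES. Leaving out 1 array of the groups compared gave 12 to 17 lower members for ATRA minus DMSO and 12 to 21 higher ones for EB minus ES. It gave 1 to 3 higher and 5 to 10 lower ones for ATRA minus ES. The member medians then ran from -0.268 to -0.224 for ATRA minus DMSO, 0.103 to 0.225 for EB minus ES, -0.117 to 0.004 for DMSO minus EB and -0.111 to 0.028 for ATRA minus ES. Testing genes above the olfactory 95th percentile kept 19 members, with 8 lower for ATRA minus DMSO, 6 higher and 1 lower for EB minus ES, and 3 lower for ATRA minus ES, whose median was then 0.015. At an adjusted p under 0.01 there were 10 lower members for ATRA minus DMSO, and 1 higher and 4 lower for ATRA minus ES. For ATRA minus ES the higher members numbered 4 with quantile normalization, 5 with median centring, 1 with an intensity trend and 5 with array weights, which gave 15 lower ones. Without both ES replicate 2 and EB replicate 2, a setting chosen after seeing the data because their spread was narrowest, gave 4 higher members and a median of 0.028 for ATRA minus ES. Apart from the fewer genes or arrays tested, the cause of these moves was not tested.

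Replicate numbers did not pair the samples throughout. Same-number deviations correlated at 0.303, 0.506 and -0.065 between EBs and ES cells (replicates 1, 2 and 3), 0.088, -0.0376 and -0.00727 between ATRA and DMSO, -0.126 to 0.0365 between DMSO and EBs and -0.0832 to -0.026 between ATRA and ES cells, and 4 of 12 samples correlated best with their own number. With a replicate block, 16 of the 17 ATRA minus DMSO calls, 17 of 17 EB minus ES calls and 8 of 9 ATRA minus ES calls were kept, 4 members were higher for ATRA minus ES, and 1 (Rian) was lower for DMSO minus EB. Rian was the 1 lower member there under quantile normalization, median centring and an intensity trend too. Over single members, 1172 values were recomputed: 84 calls were lost, 19 were gained, and none called in either setting changed sign, while 30 uncalled ones did. Microarray signal over background limits the weakest members.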

Other observations

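A further probe set annotated to several genes, Mir433 and 6430411K18Rik, read 6.95, 7.26 and 7.15 with ATRA, 7.07, 7.11 and 7.21 with DMSO, 7.03, 7.20 and 7.19 in untreated EBs and 7.00, 7.26 and 7.11 in ES cells, and its groups overlapped.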
